A study of Mus musculus with 12 samples.

Results

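The comparison set thymus of XXsry mice, which carry Sry on an XX background and are male, against thymus of XX females without Sry. It used 6 of the 12 arrays of the series, 3 of XXsry and 3 of XX, biological replicates per the series' design text, and took the probe sets whose mean log2 value over those 6 arrays was at least 5. Of 45101 probe sets, 64 of them controls, 17927 met that rule. The lowest mean inside it was 5.0 and the highest outside was 4.9983. The other 6 arrays held the same contrast with a Y chromosome present: 3 of XY- females and 3 of XY-sry males. Those mice differ from XX and XXsry mice in X chromosome number as well as in the Y. All mice were 7 to 8 weeks old, and each array had received labelled RNA from 10 µg of total thymus RNA. Both groups compared here have the same sex chromosomes, so the contrast holds X dosage constant. It joins the Sry gene to everything that follows from having testes in place of ovaries, and these cannot be told apart here. The labels do not give the strain, the place of the transgene or the hormone levels.

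Sry encodes a DNA-binding protein that starts testis formation in the fetal gonad, and the testis then makes androgens. The thymus is the organ in which T cells mature: precursors enter the cortex, rearrange their receptor genes as double-negative and double-positive cells, and move to the medulla as single-positive cells. Cortical epithelium supplies Notch ligands, interleukin 7 and chemokines, and medullary epithelium displays antigens of other tissues. Small populations of innate-like T cells, natural killer cells, B cells and regulatory T cells also mature or lodge there. Androgens act on thymic epithelium and reduce thymus size, and removal of the testes enlarges it.

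The arrays were alike in the features that could be read from the files. Array medians lay between 4.03 and 4.06 in the 6 arrays. RMA, which gave the deposited values, as usually run brings all arrays to 1 distribution, so the medians cannot show that the arrays were alike. The difference between the 3' and the 5' actin control probe sets, a sign of RNA quality, averaged 0.73 in both groups (0.66 to 0.77 in XX and 0.71 to 0.76 in XXsry). It was 0.63 in XY- and 0.79 in XY-sry, and XY- replicate 2 stood apart at 0.51. Markers of the labelled tissue were near the top of the scale in both groups: Cd3d, a chain of the T cell receptor complex, averaged 11.58 in XX and 11.55 in XXsry, and Ptprc, the pan-leukocyte marker CD45, averaged 11.99 and 11.94. In whole thymus, fewer cells of a type and less RNA per cell cannot be told apart, and this holds for each level below. Values are log2 probe set signals, so a difference of 1 is a doubling, and each ± is a standard error from the limma fit unless SD is named.

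Sry itself followed the labels. Its probe set read 5.33, 5.39 and 5.34 in the XX arrays and 6.95, 6.74 and 6.81 in the XXsry arrays. It rose by 1.48 ± 0.113 (limma adjusted p = 0.00022), and the 2 groups did not overlap. Because XX mice lack the gene, the XX values are background signal and the difference is a lower bound. A second Sry probe set, below the filter, read 2.19 to 2.45 in XX and 3.17 to 3.85 in XXsry. Xist, the long RNA that silences 1 X chromosome in XX cells, was high in all 6 arrays, with 11.39, 11.10 and 11.55 in XX and 11.63, 11.63 and 11.59 in XXsry, and did not pass (0.27 ± 0.199, adjusted p = 0.632). It lay between 3.41 and 4.19 in the 6 XY- and XY-sry arrays, which matches the labelled X chromosome numbers.

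Igfbp5 rose most in XXsry thymus, and the lymphocyte receptors Cxcr6, Klrd1 and Cxcr3 each fell by more than 1 on the log2 scale. Of the gene lists, that of innate-like T and natural killer cells had 7 of 11 measured members past the threshold, all lower. No other list had more than 3, and 0.474% of all genes fell. Of the 7, 4 passed the filter on low values only through XX, where they are high. Among members with both group means inside the filter, 3 of 7 passed, and 3 of 25 in the interferon response list. In all, 133 probe sets passed the adjusted p threshold of 0.05 (0.742% of those tested), 71 higher in XXsry (0.396%) and 62 lower (0.346%). They included 119 probe sets with 1 gene symbol, which stood for 103 genes, 56 higher and 47 lower. Of the 133, 116 were autosomal, 2 were X-linked (Cxcr3, lower, and Maged1, higher, the latter named after its values were seen), 1 was Sry and 14 had no chromosome in the gene table. In all 133 the XXsry arrays lay entirely above or entirely below the XX arrays. Over all probe sets, 10.8% had the XXsry arrays entirely above and 10.6% entirely below. The differences were modest: their median size was 0.54, the smallest was 0.24, and 10 had a size of at least 1. An unadjusted p under 0.05 was reached by 2181 probe sets. The number of calls moved with single arrays: it was 54, 43 and 52 without XX replicates 1, 2 and 3, 37 and 42 without XXsry replicates 2 and 3, 75 without XY- replicate 1, 229 without XY- replicate 2 and 88 without XY-sry replicate 3. With limma array weights it was 1329, and list counts given below moved too: 10 of 17 mature thymocyte genes fell, 8 of 16 chemokine genes, 4 of 9 B cell genes and 5 of 14 medullary genes, and 5 of 13 glucocorticoid genes rose. The list counts under other settings were added after seeing the data. In a fit of the 6 arrays alone the number of calls was 220, of which 109 were among the 133.

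**Figure D1:**
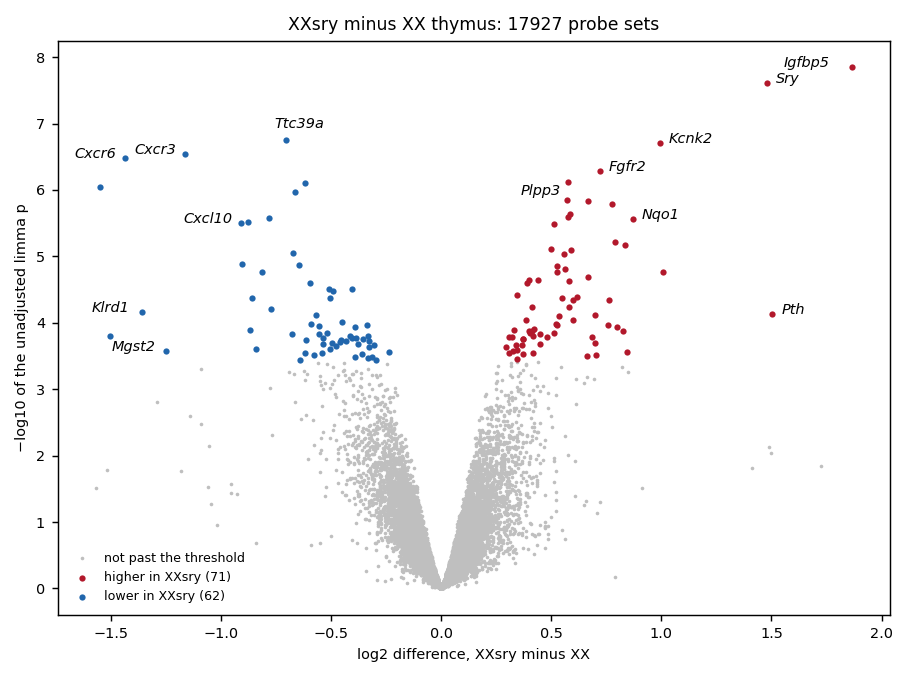
Log2 difference between XXsry and XX thymus (horizontal axis) against −log10 of the unadjusted limma p (vertical axis) for the 17927 probe sets. The 71 red points rose in XXsry, the 62 blue points fell, grey points did not pass, and Igfbp5 and Sry stand farthest from the rest at the upper right.

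The largest rise was in Igfbp5, a secreted protein that binds insulin-like growth factors and controls their access to receptors. It read 7.43, 7.38 and 7.49 in XX and 9.44, 9.22 and 9.24 in XXsry, so the lowest XXsry array lay far above the highest XX array. The difference was 1.87 ± 0.136 (limma adjusted p = 0.00022), a 3.65-fold rise, and the gene's second probe set rose by 0.78. Of 8 measured genes of the insulin-like growth factor axis, Igfbp5 rose and 7 did not pass, with a list median of 0.12 beside -0.0033 over all 9493 genes tested (0.98% of which passed, 0.506% higher and 0.474% lower). The receptor Igf1r (0.18) and the ligand Igf1 (-0.05) were among the 7.

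Fgfr2, Slc46a2 and Isl1 were also among the 15 genes with the smallest p for a rise. Fgfr2, the receptor through which keratinocyte growth factor acts on thymic epithelium, read 6.52, 6.41 and 6.27 in XX and 7.15, 7.06 and 7.15 in XXsry. It rose by 0.72 ± 0.073 (limma adjusted p = 0.00132), and its second probe set by 0.67. Slc46a2, a solute carrier known as a thymic stromal transporter, read 7.48, 7.73 and 7.57 in XX and 8.38, 8.39 and 8.38 in XXsry. The 3 XXsry arrays were nearly equal and lay above every XX array, a rise of 0.79 ± 0.102 (adjusted p = 0.005). The other Slc46a2 probe set differed by 0.47 and did not pass. Isl1, a LIM-homeodomain transcription factor, rose in both of its probe sets, by 0.58 ± 0.068 and 0.70 ± 0.118 (adjusted p = 0.0027 and 0.0243). The probe set with the larger difference read 5.88, 5.78 and 5.83 in XX and 6.63, 6.42 and 6.54 in XXsry. It lost the call when any 1 of the 6 arrays was left out (adjusted p 0.0635 to 0.0978).

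Of the 4 measured Notch ligands, which cortical epithelium presents to incoming precursors to commit them to the T lineage, Jag2 and Dll4 rose. Dll1 differed by 0.24 and Jag1 by 0.27, and neither passed (limma adjusted p = 0.296 and 0.413). Jag2 read 5.59, 5.59 and 5.67 in XX and 6.19, 6.14 and 6.05 in XXsry, a rise of 0.51 ± 0.062 (limma adjusted p = 0.00277), although its other probe set differed by 0.23 and did not pass. Dll4, the ligand that cortical epithelium relies on for this step, read 5.12, 4.98 and 4.89 in XX and 5.40, 5.42 and 5.42 in XXsry. It rose by 0.42 ± 0.076 (adjusted p = 0.0329), passed the filter on low values only through XXsry (its XX mean was just under 5), and lost the call in 6 of 12 fits that left out 1 array: without XX replicate 2 or 3, without any 1 of the XXsry arrays, and without XY- replicate 1 (adjusted p up to 0.143). Of 14 measured genes of the Notch pathway, these 2 rose and 12 did not pass, where 0.506% of all genes rose, with a median of 0.14 and 8 members whose XXsry arrays were all above the XX arrays (10.5% of all genes). The receptor Notch1 differed by 0.29 and the target Hes1 by 0.14, and neither passed.

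Of the 18 measured markers of cortical epithelium, Dll4 and Isl1 rose, none fell, and the median was 0.088, where 0.506% of all genes rose. Dll4 passed the filter on low values only through XXsry, and 1 of 17 markers with both group means inside rose. The number that rose ranged from 0 to 3 over the alternatives. The array means of the 18, taken as each marker's distance from its mean over the 6 arrays, lay between -0.102 and -0.030 in XX and between 0.041 and 0.105 in XXsry. Such means did not overlap in 21 of the 34 lists with at least 3 measured genes, so the cortical list does not stand apart by this. Markers that define the cortical lineage did not pass: the transcription factor Foxn1 differed by 0.15, the thymoproteasome subunit Psmb11 by 0.05, the protease Prss16 by 0.09 and the keratins Krt8 and Krt18 by 0.00 and 0.09. Il7, the survival factor for precursors, differed by 0.48 ± 0.113 and missed the threshold (limma adjusted p = 0.0926). Of 14 measured markers of medullary epithelium and the antigens it displays, none passed, and the median was -0.12. The basal keratins Krt5 and Krt17, the members with the highest signal, differed by 0.09 ± 0.054 and -0.23 ± 0.089 (adjusted p = 0.562 and 0.315). Aire, the regulator of antigen display, differed by -0.31 and the milk protein gene Csn2, an Aire-dependent antigen, by -0.55 (adjusted p = 0.225 and 0.0664).

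Matrix and growth factor storage genes rose in part, where 0.506% of all genes rose. Fn1, fibronectin, read 7.01, 6.80 and 7.01 in XX and 7.73, 7.51 and 7.58 in XXsry, and rose by 0.67 ± 0.098 (limma adjusted p = 0.0106, but 0.0549 without XX replicate 2). Dcn, the matrix proteoglycan decorin, read 8.15, 8.07 and 8.22 in XX and 8.89, 8.67 and 8.73 in XXsry, and rose by 0.62 ± 0.097 (adjusted p = 0.0159). It missed the threshold without XX replicate 1 or 2 or XXsry replicate 1 or 3 (adjusted p up to 0.0808). The other 11 of 13 measured fibroblast and matrix genes did not pass, among them the collagens Col1a2 (-0.02) and Col3a1 (-0.22), and the list median was 0.0033. Of 13 genes of TGF-beta signalling, Ltbp3, which holds latent TGF-beta in the matrix, rose by 0.56 ± 0.075 (adjusted p = 0.00609), and Tgfbr3, the co-receptor betaglycan, by 0.33 ± 0.064 (adjusted p = 0.0411). The other Ltbp3 probe set differed by 0.69 and did not pass. Tgfbr3 lost the call in 10 of 12 fits that left out 1 array, all but those without XY- replicate 2 or 3 (adjusted p up to 0.165). The ligand Tgfb1 (0.00) and the receptors Tgfbr1 (0.07) and Tgfbr2 (-0.02) did not pass.

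Several of the strongest rises belonged to none of these groups. Kcnk2, a potassium leak channel that sets the resting potential of cells, read 5.33, 5.41 and 5.33 in XX and 6.49, 6.29 and 6.27 in XXsry, a rise of 0.99 ± 0.092 (limma adjusted p = 0.000891). It was the only riser among 7 measured potassium channel genes, where 0.506% of all genes rose. The other 6 did not pass, Kcna3 and Kcnn4, the main channels of T cells, at 0.00 and -0.08. Nqo1, a quinone reductase and a classical target of the antioxidant factor Nrf2, read 5.75, 5.64 and 5.48 in XX and 6.47, 6.45 and 6.56 in XXsry, and rose by 0.87 ± 0.104 (adjusted p = 0.0027). Nqo1 was the only riser among 12 measured genes of the Nrf2 list (median 0.03), beside the same 0.506% of all genes. Hmox1 was at -0.13 and Gclm at 0.16. Cyp1b1, a cytochrome that oxidises oestradiol, rose by 0.83 ± 0.109, and Cbr2, a carbonyl reductase, by 0.59 ± 0.078 (adjusted p = 0.00533 and 0.00578).

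The remaining genes among the 15 with the smallest p were Enpp5, Plpp3, Rbms3 and Alcam. Rbms3, an RNA-binding protein, rose in 3 of 3 probe sets by 0.50 to 0.59, and its XXsry arrays read 7.46, 7.47 and 7.46 against 6.86, 6.82 and 6.95 in XX. Plpp3, a phosphatase of signalling lipids, rose by 0.57 ± 0.064, and Enpp5, of the ectonucleotide phosphodiesterase family, by 0.58 ± 0.061 (limma adjusted p = 0.002 and 0.00154). The other Plpp3 probe set differed by 0.34 and did not pass. Alcam, an adhesion molecule that binds CD6 on T cells, rose by 0.53 ± 0.074 (adjusted p = 0.00845) and in 2 of 4 probe sets. Without XXsry replicate 3 Alcam missed the threshold (adjusted p = 0.0521).

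Of the list for parathyroid and thyroid, tissues that lie near the thymus, Pth and Chga rose, where 0.506% of all genes rose. Pth, parathyroid hormone, read 5.50, 5.17 and 6.01 in XX and 7.07, 7.13 and 6.99 in XXsry, a rise of 1.50 ± 0.253 (limma adjusted p = 0.0243). The XX arrays were spread (SD 0.42, n = 3) and the XXsry arrays were tight (SD 0.07, n = 3). Chga, chromogranin A of endocrine granules, read 5.00, 4.73 and 4.98 in XX and 5.79, 5.80 and 5.65 in XXsry, a rise of 0.84 ± 0.165 (adjusted p = 0.0423). Of the 8 genes of the parathyroid and thyroid list these were the 2 that could be tested, and Chga passed the filter on low values only through XXsry. The calcium sensor Casr, in the higher of its probe sets, and thyroglobulin, Tg, lay below the filter at means of 3.65 and 3.45 over the 6 arrays. Both rises depended on single arrays: Pth missed the threshold without XX replicate 1 or 2 or any 1 XXsry array (adjusted p 0.0602 to 0.11), and Chga without any 1 of the 6 arrays, XY- replicate 1 or XY-sry replicate 3 (adjusted p up to 0.168). Whether the Pth and Chga signal came from adjoining tissue or from the thymus itself was not tested, nor was the part of adjoining tissue in the other rises.

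**Figure D2:**
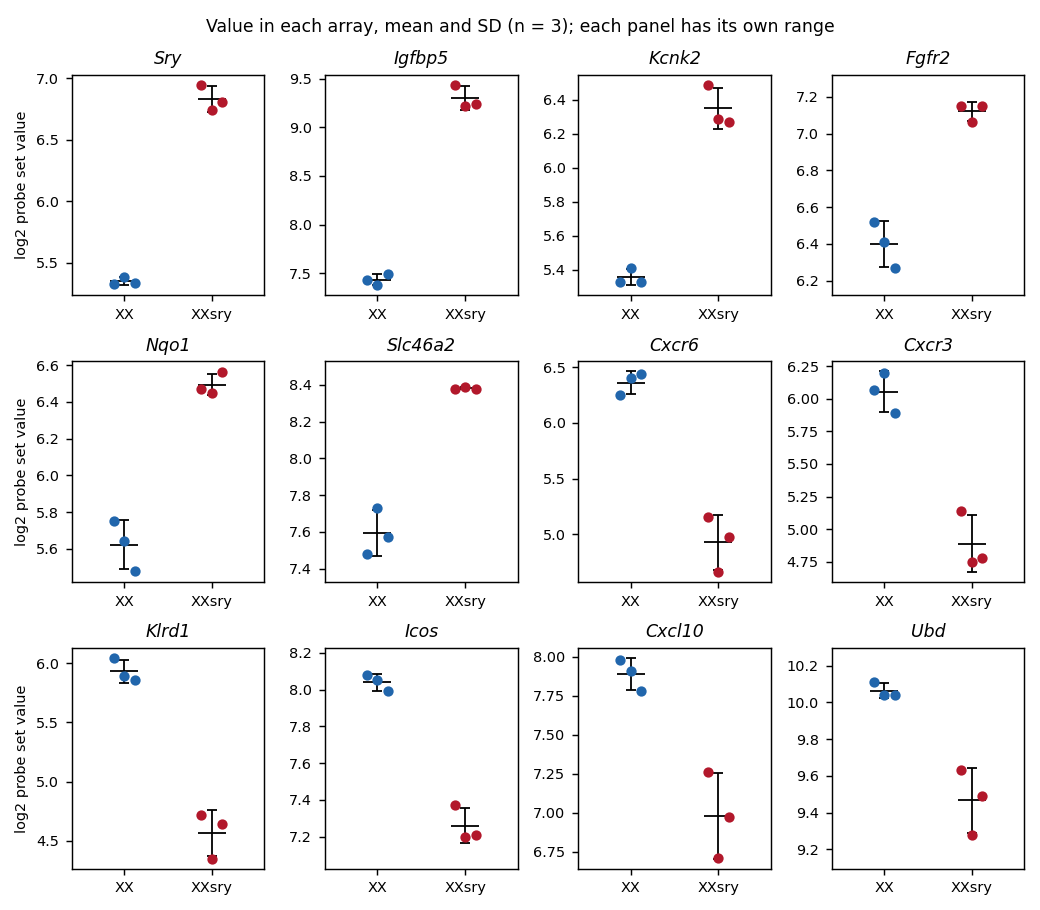
Log2 probe set value (vertical axis) in each of 3 XX arrays (blue) and 3 XXsry arrays (red) for 12 genes, with the mean and SD in black and replicates 1 to 3 from left to right in each group. The groups are apart in every panel, Sry to Slc46a2 being higher in XXsry and Cxcr6 to Ubd lower.

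The fall with the smallest p was in Ttc39a, a tetratricopeptide repeat protein on no list. It read 6.52, 6.50 and 6.48 in XX and 5.82, 5.72 and 5.84 in XXsry, and fell by 0.71 (standard error 0.065, limma adjusted p = 0.000891). It passed in all 23 alternatives and fell by 0.54 with a Y chromosome. The next smallest p-values belonged to Cxcr3 and Cxcr6, receptors of innate-like T cells and natural killer cells.

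Cxcr6, the chemokine receptor that holds natural killer T cells in tissues, read 6.25, 6.40 and 6.44 in XX and 5.15, 4.66 and 4.97 in XXsry. It fell by 1.44 on the log2 scale (standard error 0.14, limma adjusted p = 0.001), a 2.71-fold difference. Cxcr3, the X-linked receptor for interferon-induced chemokines, read 6.07, 6.20 and 5.89 in XX and 5.14, 4.75 and 4.78 in XXsry, and fell by 1.16 (standard error 0.112, adjusted p = 0.001). The gap between the groups was wider than the range within either. Klrd1, the natural killer receptor chain CD94, read 6.04, 5.89 and 5.86 in XX and 4.72, 4.35 and 4.64 in XXsry, and fell by 1.36 (standard error 0.227, adjusted p = 0.0228). Klrd1 missed the threshold without any 1 of the XX arrays or without XXsry replicate 2 or 3 (adjusted p 0.077 to 0.114).

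Icos, a costimulatory receptor, read 8.08, 8.05 and 7.99 in XX and 7.37, 7.20 and 7.21 in XXsry, and fell by 0.78 (standard error 0.093, limma adjusted p = 0.0027), in 2 of 3 probe sets. Nkg7, a protein of cytotoxic granules, fell by 0.67 (standard error 0.09, adjusted p = 0.00609), with 6.89, 6.97 and 6.95 in XX against 6.29, 6.12 and 6.38 in XXsry. Il2rb, the chain shared by the receptors for interleukin 2 and interleukin 15, fell by 0.51 in 1 probe set and 0.64 in the other, and Id2, an inhibitor of DNA binding needed by innate lymphocytes, by 0.54 and 0.33. Il2rb (adjusted p = 0.0134) missed the threshold in 4 of 12 fits without 1 array, those without XX replicate 1 or 3 or XXsry replicate 2 or 3 (adjusted p up to 0.0672). Id2 (adjusted p = 0.036) missed it in 7 of 12, those without any 1 XX array, XXsry replicate 2 or 3, XY- replicate 1 or XY-sry replicate 3 (adjusted p up to 0.163).

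Of the 11 measured members of the innate-like T and natural killer list, 7 fell, none rose and 4 did not pass, where 0.474% of all genes fell. Their median difference was -0.54, and 9 of 11 had all XXsry arrays below all XX arrays (11.4% of all genes). Of the 7, Cxcr6, Cxcr3, Klrd1 and Il2rb had XXsry means under 5 and passed the filter on low values only through XX, where they are high, so these counts and the median lean towards a difference. The other 3, Icos, Nkg7 and Id2, were above 5 in both groups, among 7 such members. The 4 that did not pass were Ccl5 (-0.38), Tyrobp (-0.18), Slamf1 (-0.17) and Gzma (0.13). The number that fell was 3 with a filter at a mean of 6, which left 7 members, and 4 without XX replicate 1 or 3 or without XXsry replicate 2 or 3. A further 8 members lay below the filter. In a fit without it, where 0.0822% of probe sets fell, 1 of the 8 fell by the probe set with the highest mean, and the other 7 did not pass, with differences between -0.52 and 0.17 (Klrk1 lowest, Ncr1 highest). The one that fell was the cytotoxic protease Gzmb, which had 5.08, 4.94 and 5.07 in XX and 3.99, 3.60 and 3.98 in XXsry and fell by 1.17 (adjusted p = 0.00186). Zbtb16, the master regulator of innate-like T cells, fell there by 0.80 in 1 of 3 probe sets, not the one with the highest mean (adjusted p = 0.00657), with 3.94, 3.64 and 3.75 in XX and 3.08, 2.80 and 3.04 in XXsry, among the lowest signals on the arrays. Other genes with small p that such cells express were Ctsw, a protease of cytotoxic cells (fell by 0.65, standard error 0.09, adjusted p = 0.00823), and Cd7, a surface protein of T and natural killer cells (fell by 0.62, standard error 0.065, adjusted p = 0.00154).

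Cxcl10, an interferon-induced ligand of Cxcr3, read 7.98, 7.91 and 7.78 in XX and 7.26, 6.71 and 6.97 in XXsry. It fell by 0.91 (standard error 0.11, limma adjusted p = 0.00277). The other ligands of that receptor, Cxcl9 (-0.78) and Cxcl11 (-0.53), missed the threshold (adjusted p = 0.0839 and 0.0749). Cxcl16, the ligand of Cxcr6, differed by -0.03 and did not pass. Of 16 measured chemokines and receptors of thymocyte migration, Cxcr6, Cxcr3 and Cxcl10 fell and none rose (median -0.25), where 0.474% of all genes fell. Cxcr6 and Cxcr3 are the innate-like list members already counted, and passed the filter on low values only through XX, where they are high. Of 13 members with both group means inside the filter, 1 fell. The number that fell was 5 without XXsry replicate 1 or XY- replicate 3, and 1 of 12 with a filter at a mean of 6. The cortical chemokines Ccl25 (0.05) and Cxcl12 (0.17) and the receptors Ccr9 (-0.01) and Ccr7 (-0.32) did not pass.

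Interferons act through a transcription factor complex that binds the interferon-stimulated response element, here searched as a GAAA block, any 2 bases and a second GAAA block, on both strands of the RefSeq promoter window of 300 bases around each start (GRCm38.p6). Of the 35 genes that fell and have such a window, 5 held a match (14.3%), against 1 of 44 genes that rose (2.27%), 3.8% of 7768 genes tested and 3.44% of all 32851 windows. Of 20 measured interferon list genes with a window, 55% held it. The 5 stretches are shown because their genes all fell, with the matched letters in capitals, read along the gene's strand. A stretch that reads TTTC in both blocks has the match on the other strand, and in Bst2 a pair of matches overlap.
Cxcl10, chr5:92349068-92349127, minus strand: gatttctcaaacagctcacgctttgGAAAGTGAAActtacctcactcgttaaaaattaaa
Gbp2, chr3:142620579-142620638, plus strand: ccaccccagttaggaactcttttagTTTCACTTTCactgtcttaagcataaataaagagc
Bst2, chr8:71537562-71537627, minus strand: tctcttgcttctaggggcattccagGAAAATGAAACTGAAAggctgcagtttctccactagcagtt
Ifi213, chr1:173599311-173599370, minus strand: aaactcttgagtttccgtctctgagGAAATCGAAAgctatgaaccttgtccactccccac
Ifit1bl1, chr19:34599416-34599475, minus strand: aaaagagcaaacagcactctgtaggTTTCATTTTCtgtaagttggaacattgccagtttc
A match is a string of letters and not a measured binding site. The androgen response element, searched as a 15-letter palindrome, matched in no gene that rose or fell and in 1 of the 7768 tested (0.0129%). A string this rare could hardly have matched among so few called genes, so this search cannot tell whether androgens act on them. The letters AACAAT, bound by Sry-type proteins, matched in 13.6% of genes that rose, 8.57% of genes that fell, 6.99% of genes tested and 10.7% of all windows.

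The 5 genes with these elements fell by 0.33 to 0.91. Gbp2, a guanylate-binding protein of cell-autonomous immunity, read 8.04, 7.85 and 7.90 in XX and 7.62, 7.42 and 7.51 in XXsry, and fell by 0.41 (standard error 0.076, limma adjusted p = 0.0329). The other Gbp2 probe set differed by -0.29 and did not pass. Bst2, the virus-tethering protein, read 7.59, 7.52 and 7.55 in XX and 7.34, 7.15 and 7.18 in XXsry, and fell by 0.33 (standard error 0.063, adjusted p = 0.0372). In both genes the groups stood apart by less than a single unit. Gbp2 missed the threshold in 8 of 12 fits without 1 array and Bst2 in 9, among them every fit without an XX array or without XXsry replicate 2 or 3, without XY- replicate 1, or without XY-sry replicate 1 or 3, and for Bst2 also without XY-sry replicate 2 (adjusted p up to 0.15 and 0.171). Ifi213, of the interferon-inducible family that senses DNA, read 6.63, 6.52 and 6.29 in XX and 5.83, 5.36 and 5.53 in XXsry, and fell by 0.91 (standard error 0.127, adjusted p = 0.00823). Ifit1bl1, a relative of the antiviral Ifit genes, read 6.42, 6.17 and 5.90 in XX and 5.42, 5.14 and 5.35 in XXsry. It fell by 0.86 (standard error 0.136, adjusted p = 0.0159). Ifit1bl1 missed the threshold without XX replicate 1 or 2 or XXsry replicate 2 or 3 (adjusted p up to 0.0942).

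Over the whole interferon response list, 3 of 26 measured members fell (Cxcl10, Gbp2 and Bst2), none rose and 23 did not pass, where 0.474% of all genes fell. The median was -0.33, all 26 differences were below 0, and in 19 of 26 every XXsry array lay below every XX array (11.4% of all genes). The mean over the 26 members was spread within groups: it lay between 0.064 and 0.308 in XX and between -0.278 and -0.034 in XXsry around each member's mean. The number that fell was 1 without any 1 XX array, XXsry replicate 2 or 3, XY- replicate 1 or XY-sry replicate 1 or 3, was 5 without XXsry replicate 1 or XY- replicate 3, was 1 with no filter on low values, and was 20 with array weights. Members that did not pass included Ifit1 (-0.38), Irf7 (-0.34), Mx1 (-0.32) and Stat2 (-0.07). Outside the list, Ubd, a ubiquitin-like protein induced by inflammatory cytokines, read 10.11, 10.04 and 10.04 in XX and 9.63, 9.28 and 9.49 in XXsry. It fell by 0.60 (standard error 0.089, limma adjusted p = 0.0114), and missed the threshold without XX replicate 1 or 2 or XXsry replicate 3 (adjusted p up to 0.0617). Gbp6, another guanylate-binding protein, fell by 0.49 and 0.51 in its 2 probe sets. The first (adjusted p = 0.0141) missed the threshold without XX replicate 1 or 3 or XXsry replicate 2 (adjusted p up to 0.0775).

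Few genes of conventional thymocytes passed. Of 17 markers of mature single-positive thymocytes, Il7r, the receptor for interleukin 7, fell by 0.58 (standard error 0.114, limma adjusted p = 0.044). The other Il7r probe set differed by -0.69 and did not pass. Slfn2, which keeps T cells quiescent, fell by 0.35 (standard error 0.065, adjusted p = 0.0332). The other 15 did not pass, among them the egress genes Ccr7 (-0.32), S1pr1 (-0.13) and Klf2 (-0.11). The median was -0.28 and in 11 of 17 the XXsry arrays were all below the XX arrays, beside 11.4% of all genes. The 2 calls are set against 0.474% of all genes that fell. Il7r and Slfn2 each missed the threshold in 9 of 12 fits without 1 array, those without any 1 of the 6 arrays, XY- replicate 1 or XY-sry replicate 1 or 3 (adjusted p up to 0.175 and 0.155).

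Of 17 markers of double-positive cells, the most abundant stage, Rag2, a subunit of the recombinase that cuts receptor genes, fell by 0.30 (standard error 0.058, limma adjusted p = 0.0363). Its values were 9.25, 9.32 and 9.41 in XX and 9.07, 9.01 and 8.99 in XXsry. Its partner Rag1 differed by -0.04, the coreceptors Cd4 and Cd8a by 0.01 and -0.08, and the list median was -0.04. Rag2 was the only one of the 17 to pass, where 0.474% of all genes fell. Rag2 missed the threshold in 10 of 12 fits without 1 array, all but those without XY- replicate 2 or 3 (adjusted p up to 0.159). None of the 15 measured genes of the T cell receptor complex and its coreceptors passed, and their differences lay between -0.15 and 0.06. Of 12 markers of double-negative cells, 1 of which was the Il7r already given, the other 11 did not pass and the median was 0.085.

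Regulatory T cell and class I genes had single members that fell. Tnfrsf4, the costimulatory receptor OX40, read 7.10, 6.91 and 7.01 in XX and 6.67, 6.63 and 6.59 in XXsry, and fell by 0.38 (standard error 0.071, limma adjusted p = 0.0359). It missed the threshold in 8 of 12 fits without 1 array, those without any 1 of the 6 arrays or without XY-sry replicate 1 or 3 (adjusted p up to 0.158). With Il2rb it made 2 of 10 measured members of the regulatory T cell list that fell, where 0.474% of all genes fell. Il2ra (0.32) and Ctla4 (0.13) did not pass. Il2rb passed the filter on low values only through XX, where it is high, and 1 of 9 members with both group means inside fell. The number that fell in the regulatory T cell list ranged from 0 to 4 over the alternatives. Foxp3, the defining factor of that lineage, lay below the filter at 3.05 over the 6 arrays. Nlrc5, the transactivator of class I antigen-presentation genes, read 7.28, 7.31 and 7.21 in XX and 6.95, 6.61 and 6.68 in XXsry, and fell by 0.52 (standard error 0.094, adjusted p = 0.0328). Among its known targets B2m differed by -0.14, H2-K1 by -0.13 and Tap1 by -0.10. The other 10 of 11 class I genes, these included, did not pass. Nlrc5 missed the threshold without any 1 XX array or without XXsry replicate 2 or 3 (adjusted p up to 0.15).

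Markers of other blood cells moved with the groups as follows. Pou2af1, a coactivator of B cells, read 6.51, 6.75 and 6.55 in XX and 6.04, 5.52 and 5.65 in XXsry, and fell by 0.87 (standard error 0.155, limma adjusted p = 0.0318). It was 1 of 9 measured B and plasma cell genes to pass, where 0.474% of all genes fell. All 9 differences were below 0 (median -0.41), with Mzb1 at -1.09, Ighm at -0.51 and the B cell receptor chains Cd79a and Cd79b at -0.13 and -0.07. Pou2af1 missed the threshold without any 1 XX array, XXsry replicate 2 or 3 or XY- replicate 1 (adjusted p up to 0.145).

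Neutrophil genes varied most from animal to animal. S100a8, a calcium-binding protein of neutrophils, read 8.38, 7.93 and 7.21 in XX and 5.93, 5.60 and 7.44 in XXsry, so that the groups overlapped. It differed by -1.52 ± 0.541 (limma adjusted p = 0.28), and its partner S100a9 by -1.57 ± 0.637 (adjusted p = 0.347). None of 7 measured neutrophil genes passed, their median was -1.05, and the mean over the 7 lay between -0.009 and 0.764 in XX and between -0.876 and 0.172 in XXsry. None of 17 dendritic cell and macrophage genes passed (median -0.06), with the class II genes Cd74 and H2-Aa at 0.05 and 0.06. The part of blood or B cells in the lower interferon and lymphocyte signal was not tested.

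Cell cycle genes lay slightly higher in XXsry, with no call. All 19 measured genes of DNA replication lay above 0 with a median of 0.14, and all 19 genes of mitosis with a median of 0.13, but none of the 38 passed. In 16 of the 19 mitosis genes every XXsry array lay above every XX array, as in 10 of 19 replication genes (10.5% of all genes). Top2a, the mitotic topoisomerase, differed by 0.12 ± 0.073, and Mki67, the proliferation marker, by 0.09 ± 0.078 (limma adjusted p = 0.548 and 0.679). Pcna and Mcm7, of the replication machinery, differed by 0.10 ± 0.056 and 0.16 ± 0.054 (adjusted p = 0.529 and 0.26).

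Of 7 measured sex steroid receptors and responsive genes, Igfbp5 rose and 6 did not pass, where 0.506% of all genes rose. This is the Igfbp5 call already counted in the insulin-like growth factor axis. Among the 6, Esr1, the oestrogen receptor, differed by 0.39 and Fkbp5, a chaperone induced by androgens and glucocorticoids, by 0.30 (limma adjusted p = 0.186 and 0.0951). A second Fkbp5 probe set, noted after its value was seen, rose by 0.31 ± 0.057 (adjusted p = 0.0329). None of 13 glucocorticoid genes passed (median 0.033), the receptor Nr3c1 at 0.19 and Txnip at 0.13. Dio1, the deiodinase that activates thyroid hormone, read 6.40, 6.38 and 6.45 in XX and 5.77, 5.41 and 5.61 in XXsry, and fell by 0.81 (standard error 0.117, adjusted p = 0.00912). It missed the threshold without XXsry replicate 2 (adjusted p = 0.0518).

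The lists of stress, vessels, other tissues and chromatin held few calls. None passed among 15 immediate early genes (median -0.11, Btg2 at -0.03 and Egr1 at -0.11), 13 heat shock genes (median -0.02, Hspa8 at 0.00 and Hsp90aa1 at 0.05) or 9 clock genes (median 0.05, Arntl at -0.17 and Nr1d2 at 0.05). The same held for 5 endothelial genes (Pecam1 at 0.07 and Plvap at 0.13), 6 fat genes (Fabp4 at 0.22 and Lpl at -0.04), 2 red cell genes (Tfrc at -0.01 and Bpgm at -0.07), 2 muscle genes (Eno3 at -0.17 and Mylpf at -0.02) and Ltb of lymph node (-0.24). Genes that escape X inactivation, 12 of them measured, had a median of -0.04 and none passed, with Ddx3x at 0.03. Of 11 X-linked immune genes, Cxcr3 fell and the rest did not pass, where 0.474% of all genes fell. Cxcr3 passed the filter on low values only through XX, and none of 10 members with both group means inside passed. None of 17 DNA methylation and Polycomb genes passed, with Ezh2 at 0.03 and Uhrf1 at 0.14. Of 4 measured fibroblast growth factor genes, Fgfr2 rose and 3 did not pass, where 0.506% of all genes rose.

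**Figure D3:**
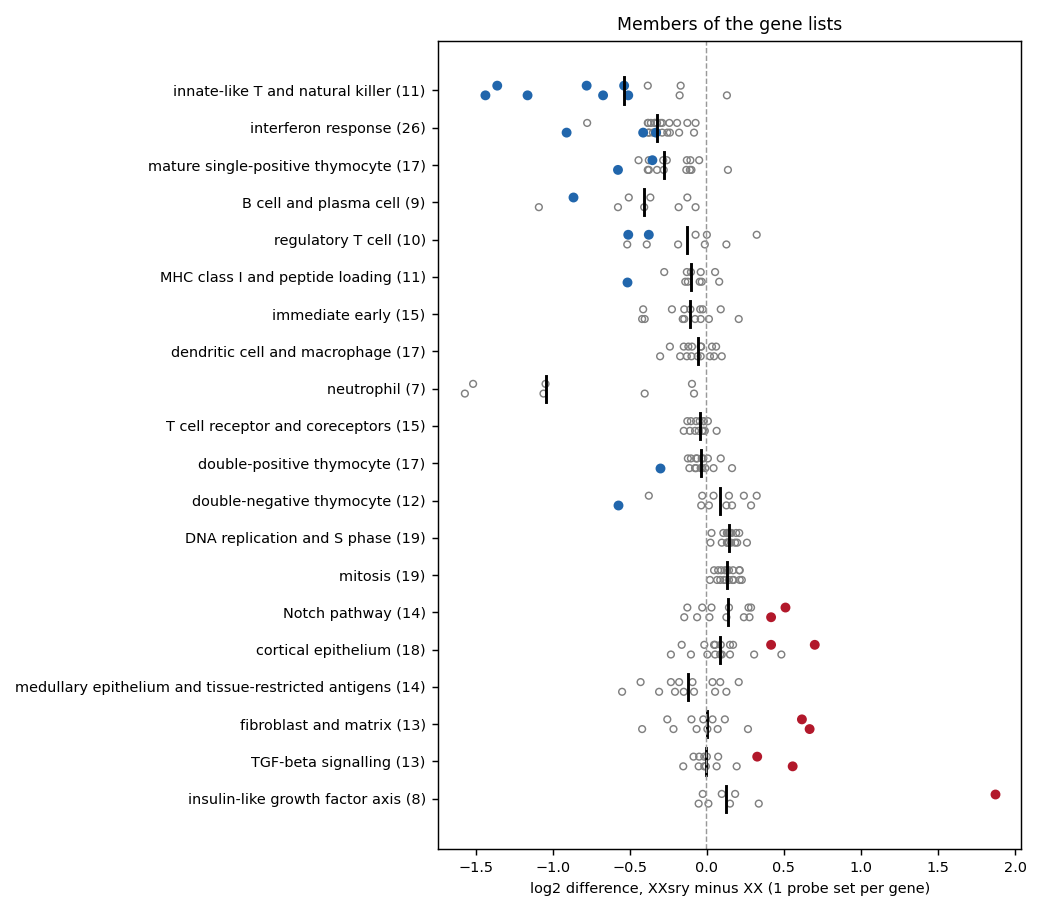
Log2 difference between XXsry and XX (horizontal axis) of each measured member of 20 gene lists, 1 probe set per gene, with the number measured in brackets. Red and blue points passed as higher or lower, open points did not pass, black bars are list medians and the dashed line is the median of all genes tested. The innate-like list has 7 blue points, 4 of which passed the filter on low values only through XX, and every interferon point lies left of the dashed line.

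The same contrast in mice with a Y chromosome shares no array with this one. Those mice also differ in X chromosome number, so Y presence and X dosage cannot be told apart where the 2 contrasts differ. There, in XY-sry minus XY-, 1550 probe sets passed (8.65%), and 55 with the actin 3' minus 5' value as a covariate, a value that differed between those groups (0.63 in XY- and 0.79 in XY-sry). Of the 71 probe sets that rose in XXsry, 40 rose there too, and of the 62 that fell, 44 fell there too, against 4.26% and 4.38% of all probe sets. The 4 groups share 1 estimate of spread, so the fits are not fully independent. Igfbp5 rose by 1.54 ± 0.136 with a Y chromosome and by 1.87 ± 0.136 without. Cxcr6 fell by 1.55 with a Y chromosome and fell by 1.44 without, with a standard error of 0.14 for each. Cxcr3 fell by 1.12 and fell by 1.16 in the same order (standard error 0.112), and Icos fell by 0.78 in both (standard error 0.093). Nqo1 rose by 0.88 and 0.87. Pth differed by 0.53 ± 0.253 with a Y chromosome and did not pass there (adjusted p = 0.207), and the difference between its 2 effects did not pass either (0.97 ± 0.358, adjusted p = 0.255). Of the 11 innate-like genes, 7 fell and 1 rose in XY-sry (2.44% and 4.81% of all genes), with a median of -0.68, and none of the 11 passed for the difference between the 2 contrasts (0.548% of all genes).

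**Figure D4:**
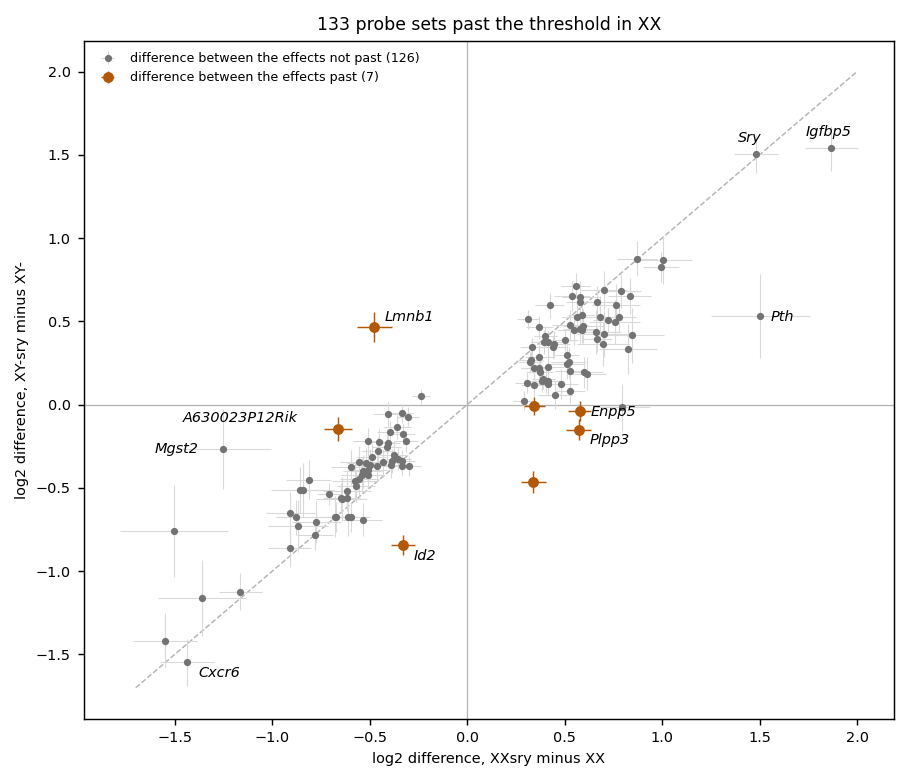
Log2 difference between XXsry and XX (horizontal axis) and between XY-sry and XY- (vertical axis) for the 133 probe sets past the threshold in XX, with standard errors and a dashed line of equal effects. Most points lie near the line; the difference between the effects passed for 7 (orange), among them Lmnb1, which lies at the upper left.

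The size of the Sry effect differed between XX and XY- at 231 probe sets (1.29%), 183 more positive in XX (1.02%) and 48 more negative (0.268%). The XX effect itself passed at 7 of these and the XY- effect at 214. Whether such differences go with the Y or with X dosage cannot be told apart in this design. Lmnb1, a lamin of the nuclear envelope, read 8.40, 8.30 and 8.02 in XX and 7.68, 7.82 and 7.79 in XXsry, a fall of 0.48 (standard error 0.091, limma adjusted p = 0.0372). In mice with a Y chromosome it rose by 0.47 ± 0.091, from 7.83, 7.82 and 7.65 in XY- to 8.21, 8.19 and 8.30 in XY-sry. The 2 effects differed by -0.94 ± 0.129 (adjusted p = 0.0213). Lmnb1 was the only one of 17 measured lamina and heterochromatin genes to pass in XX, where 0.474% of all genes fell. Its fall in XX missed the threshold in 9 of 12 fits without 1 array (adjusted p up to 0.151). Only the fits without XX replicate 3 or XY- replicate 2 or 3 kept the call.

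Enpp5 and Plpp3 rose in XX and not with a Y chromosome. Enpp5 read 6.59, 6.46 and 6.65 in XX and 7.19, 7.11 and 7.13 in XXsry, against 6.80, 6.86 and 6.93 in XY- and 6.79, 6.81 and 6.88 in XY-sry. Plpp3 read 6.13, 6.06 and 5.99, then 6.68, 6.61 and 6.61, against 6.38, 6.31 and 6.46, then 6.13, 6.25 and 6.32. The 2 effects differed by 0.61 ± 0.086 for Enpp5 and 0.72 ± 0.091 for Plpp3 (limma adjusted p = 0.0213 for each). In both genes the XY- females lay between the XX females and the XXsry males. A630023P12Rik, an uncharacterised gene, fell by 0.66 in XX (standard error 0.072) and differed by -0.15 ± 0.072 with a Y chromosome, a difference of -0.52 ± 0.102 (adjusted p = 0.0374). The actin 3' minus 5' value was level between XX and XXsry and differed between XY- and XY-sry. With it as a covariate, 1 probe set remained past the threshold for the difference between the effects, and none of these 4 genes passed, whereas all 48 named probe sets kept their call in XXsry against XX. The count for the difference was 0 without XX replicate 1, XXsry replicate 2 or 3, or XY-sry replicate 3 (limma), where 2043, 2052, 2007 and 2020 probe sets had an unadjusted p under 0.05. It was 1 without XY-sry replicate 1, 11 and 37 without XX replicate 3 and 2, 99 without XXsry replicate 1, 79 without XY- replicate 1, 451 without XY- replicate 3 and 388 without XY-sry replicate 2.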

How the data were processed

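Thymus total RNA of 12 samples was hybridised to 1-colour Affymetrix arrays, 3 per group. The authors deposited log2 probe set values computed by RMA, as the submitters' processing notes list it without a version. RMA as usually run brings all arrays to 1 distribution and compresses low signals. Probe sets were named from the platform's gene table and matched to RefSeq GRCm38.p6 by Entrez ID (34754 of 34958 with 1 symbol). No group was inferred from values.

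The 12 arrays were fitted as 4 groups with limma 3.58.1 in R 4.3.3 (8 residual and 3.7 prior degrees of freedom), and p-values were adjusted by Benjamini-Hochberg over the 17927 probe sets, with a threshold of 0.05. Counts over genes used 1 probe set per gene, the highest mean over the 6 arrays. Precision is limited by the number of arrays, with a median standard error of 0.0774. For 92.3% of probe sets, both ends of the 95% interval lay within 0.5 of no difference. In simulated data with 17927 probe sets and 200 changed, the XXsry minus XX fit recovered 22% at a log2 difference of 0.3, 71% at 0.5 (8 false of 150 calls) and 97% at 1. The fit of the difference between the Sry effects recovered 0%, 34% and 91.5%.

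Genes were named by a rule: the 15 with the smallest p in each direction, every list member that passed, the 2 highest members of a list with none past, the 5 smallest p in each direction for the difference between the effects, and Sry and Xist. Other list members that did not pass, given to describe a list, and genes below the filter were picked after their values were seen. Members and lists were chosen with earlier results of these data known. The deviations of same-numbered XX and XXsry arrays correlated at 0.115, 0.044 and -0.045, which shows no clear pairing of these groups. Over all groups, same-numbered arrays correlated at -0.083 to 0.307 (median 0.040). Arrays with different numbers correlated at -0.334 to 0.255 (median -0.022). Alternatives were other filters, scalings and variance models, array weights, the 6 arrays alone, a replicate block, the actin value as a covariate, 1 probe set per gene, other thresholds and each array left out. List counts under them were added after seeing the data. Figures were drawn with matplotlib 3.10.9.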

Additional observations from a re-analysis of the deposited data

Results flagged for a closer look

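The following genes were singled out because the effect of Sry differed between XX and XY- thymus in a test of the difference itself (limma, adjusted p between 0.0213 and 0.0403). Each value is the XX effect minus the XY- effect. It was 0.61 for Enpp5, 0.72 for Plpp3, -0.52 for A630023P12Rik and -0.94 for Lmnb1, whose effects in XX passed. For the remaining genes the XX effect did not pass and the XY- effect did. Of these, Btg2, an antiproliferative early response gene, differed by 0.98, Slc25a30, a mitochondrial carrier, by 0.98, and Ccdc88c, a regulator of Wnt signalling, by 0.81. The kinase Nlk differed by 0.70 and the transcription factor Zbtb20 by 0.98. In the other direction, Arglu1, a splicing cofactor, differed by -1.35, Prpf19, a spliceosome ubiquitin ligase, by -1.07, Rraga, a nutrient-sensing GTPase, by -0.86, and Ywhab, an adaptor protein, by -0.64. None of the 13 passed with the actin 3' minus 5' value as a covariate (adjusted p 0.155 to 0.341).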

How the results depend on the processing

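The 48 named probe sets past the threshold in XXsry minus XX kept their direction in every alternative run for them (21 to 23, since some filters and the choice of 1 probe set per gene leave a probe set out), and 24 of them passed in every one. The number past the threshold, 133, was 1329 with array weights, 220 with the 6 arrays alone, 251 at an adjusted p under 0.1, 80 with a log2 difference of at least 0.5, and 37 to 229 with 1 array left out. For the difference between the Sry effects, 231 became 1275 with array weights, 1 with the actin covariate, 15 with 1 probe set per gene, 485 at an adjusted p under 0.1, and 0 to 451 with 1 array left out. The causes were not tested. With the replicate number as a block, 118 probe sets passed in XXsry minus XX, 97 of them among the 133, and 378 for the difference between the effects. Rag2, Dll4, Bst2, Tnfrsf4, Tgfbr3, Chga and Lmnb1 lost their call under the block. The arrays are known to share only a number, so whether these effects are weaker cannot be told from the block. With 3 arrays a group, differences of 0.3 were mostly not detectable, and signals near the arrays' floor understate a difference.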

Other observations

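The genes in this section were chosen after their values were seen, and their calls were not followed in fits without 1 array. Among the other genes with a probe set that rose in XXsry, Trp63, the factor that maintains stratified and thymic epithelium, rose by 0.58 ± 0.095 (limma adjusted p = 0.0201). Nfib rose by 0.76 ± 0.122 and Nfia by 0.60 ± 0.103 (adjusted p = 0.0164 and 0.0275). Egfr, the epidermal growth factor receptor, rose by 0.70 ± 0.139 and Osmr, the oncostatin M receptor, by 0.68 ± 0.126 (adjusted p = 0.0442 and 0.0329). Gas1, a membrane protein of Hedgehog signalling, rose in both probe sets, by 0.76 and 0.70. The antioxidant Gpx3 rose by 0.53 ± 0.076 (adjusted p = 0.00912) and differed by 0.08 with a Y chromosome, and the difference between these effects did not pass (adjusted p = 0.0729).

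Among other probe sets that fell, Mgst2, a glutathione transferase of leukotriene synthesis, fell by 1.25 (standard error 0.243, limma adjusted p = 0.0411), with 7.16, 7.09 and 7.34 in XX and 5.68, 6.04 and 6.12 in XXsry. With a Y chromosome it differed by -0.27, and the difference between the effects did not pass (adjusted p = 0.23). Itgae, the integrin chain CD103 that binds epithelium, fell by 0.59 and 0.55 in its 2 probe sets. Ccl8, a monocyte chemokine, fell by 0.84 (standard error 0.162, adjusted p = 0.039), and Slfn1, a relative of Slfn2, by 0.77 (standard error 0.127, adjusted p = 0.021). Interferon-inducible genes outside the list that fell were Ifi209 (by 0.50 and 0.62), Samd9l (by 0.31) and Dtx3l (by 0.36).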
